A study of Homo sapiens with 4 samples.

Results

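The 9 genes described here encode the serine synthesis pathway and the main folate-dependent one-carbon enzymes, chosen by name from 56271 rows of a gene count table. They are PHGDH, PSAT1 and PSPH of serine synthesis, SHMT2, MTHFD2, MTHFD1L and ALDH1L2 of the mitochondrial folate pathway, and SHMT1 and MTHFD1 of the cytosolic folate pathway. The table holds poly-A RNA sequencing of SKBR3, an established HER2-positive breast cancer cell line, in 2 eGFP control libraries and 2 libraries of cells overexpressing VIRMA, a scaffold protein of the RNA N6-methyladenosine (m6A) writer complex. Per the study's methods, both lines carried a lentiviral vector, which expressed eGFP alone in the controls and HA-tagged full-length VIRMA with eGFP, separated by a p2A peptide, in the VIRMA-overexpressing cells. Each line was a sorted and expanded population of eGFP-positive cells, so VIRMA and other differences between these 2 populations cannot be told apart. The labels of all 4 libraries speak of a hypoxic chamber and of lysis for protein, while the methods for RNA sequencing do not, which leaves their oxygen level uncertain, with both groups labelled alike.

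Cells make serine from the glycolytic intermediate 3-phosphoglycerate. PHGDH oxidizes it, PSAT1 transfers an amino group from glutamate and PSPH removes the phosphate. Serine hydroxymethyltransferase then passes a carbon from serine to tetrahydrofolate, by SHMT2 in mitochondria and SHMT1 mainly in the cytosol, and leaves glycine. In mitochondria MTHFD2 and MTHFD1L carry that carbon on to formate, which leaves for the cytosol, while ALDH1L2 oxidizes formyl-tetrahydrofolate to CO2. In the cytosol the trifunctional MTHFD1 takes up formate for purine, thymidylate and methionine synthesis, or runs in the other direction. Several of these genes, PHGDH, PSAT1, SHMT2, MTHFD2 and ALDH1L2 among them, are textbook targets of the stress-induced transcription factor ATF4.

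The promoter sequences below, from RefSeq (GRCh38.p14), are shown because the members moved in opposite directions by compartment, and they set the upstream letters of genes that were higher beside those of genes that were lower. Of the 9 members, PHGDH, PSAT1, MTHFD2, MTHFD1L, SHMT1 and MTHFD1 had an entry, and PSPH, SHMT2 and ALDH1L2 had none. All are written 5′ to 3′ on the gene's strand, with the matched motif in capitals. The PSAT1 and SHMT1 lines are stretches of 100 bases outside exons. Windows of PHGDH and MTHFD2 were cut around CCAAT, of MTHFD1L around TGATGCAA and of MTHFD1 around CACGTG. Each window has 11 bases on either side of its motif. The lines are therefore not like stretches, and a motif absent from a line can lie elsewhere in that promoter.
PHGDH, chr1:119711852-119711878, plus strand: agtatttccgtCCAATcaaaaggagac
PSAT1, chr9:78297025-78297124, plus strand: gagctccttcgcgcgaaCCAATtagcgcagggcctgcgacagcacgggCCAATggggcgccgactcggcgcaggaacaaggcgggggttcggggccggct
MTHFD2, chr2:74198530-74198556, plus strand: tgcggcagggaCCAATgggtggcggag
MTHFD1L, chr6:150866346-150866375, plus strand: gccgccggctcTGATGCAAtcgcgccgggc
SHMT1, chr17:18363564-18363663, minus strand: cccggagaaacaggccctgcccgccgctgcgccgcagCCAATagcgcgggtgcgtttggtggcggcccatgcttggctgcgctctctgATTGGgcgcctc
MTHFD1, chr14:64388327-64388354, plus strand: cagtccctaagCACGTGggttgggttgt

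Each motif was searched on both strands from 250 bases before to 50 bases after each of 35116 start sites. The composite C/EBP-ATF element TTGCATCA, the form that ATF4 binds with C/EBP partners, was in at least 1 promoter of 1.08% of the 27305 genes listed (0.866% of start sites) and of 1 of the 6 members with an entry. That member was MTHFD1L, where it reads TGATGCAA on the gene's strand. It lies 129 bases before the start site at 150866486, 90 before that at 150866447 and 24 after that at 150866333. The looser form TTGCNTCA was in promoters of 4.01% of genes (3.21% of start sites) and matched the same MTHFD1L letters alone among the members. The E-box CACGTG, a core bound by MYC and related factors, was in promoters of 8.78% of genes (7.26% of start sites) and in those of MTHFD1L and MTHFD1, in the latter 15 bases before the start. CCAAT, the NF-Y box, was added after the letters were seen, and it was in promoters of all 6 members with an entry and of 39.7% of genes (34.6% of start sites). It is present both in members that were higher (PHGDH, PSAT1, MTHFD2, MTHFD1L) and in those that were lower (SHMT1, MTHFD1). Whether any of these motifs has a part in the directions described below was not tested. A match is a description of letters, and an absent match says only that the letters are not in this window.

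VIRMA is given first because it checks the labels. Its row, under the older symbol KIAA1429, held 710 and 682 counts in the eGFP control libraries and 3437 and 3460 in the VIRMA-overexpressing libraries. Its level rose by a log2 fold change of 2.29 (edgeR adjusted p = 9.74e-26, SE 0.0685), or 4.89-fold, and the groups did not overlap. The libraries held 81446932 to 86375474 counts. Mitochondrial genome transcripts took 11.4% and 11.6% of counts in the controls and 12.8% in each VIRMA-overexpressing library, and their part in the results below was not tested. All 8 SKBR3 markers, ERBB2 and luminal keratins among them, passed the filter on low values, and PGR was at 0 in every library. Of markers of other cell types, none of 8 leukocyte, 2 of 8 fibroblast and endothelial and 1 of 8 erythroid genes passed it. The erythroid list summed to 28.0 and 20.3 CPM (the count scaled to library size) in the controls against 0.479 and 0.323 in the VIRMA-overexpressing libraries, nearly all of it HBB in the controls, the leukocyte list to 1.93 to 3.46 and the fibroblast and endothelial list to 16.4 to 21.4, and their part was not tested. Counts per gene in bulk RNA do not separate fewer cells with a transcript from less transcript per cell. Enzyme names below stand for their mRNAs, and no protein or activity of these enzymes was measured in these libraries.

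All 9 members were expressed and passed the filter, an RPKM above 1 in at least 2 libraries, which 12205 genes passed. ALDH1L2 passed it only through the VIRMA-overexpressing libraries, where it is high, since its RPKM was 0.717 and 0.757 in the controls. With no filter its log2 fold change was 2.05, still past both thresholds. At a Benjamini-Hochberg adjusted p below 0.05 in edgeR's quasi-likelihood test, 7 members were higher in VIRMA-overexpressing cells, where 35.1% of all tested genes were, and 2 were lower, where 35.9% were. The 7 were every serine synthesis and every mitochondrial folate enzyme, and the 2 were both cytosolic folate enzymes. With an absolute log2 fold change above 1 as well, PHGDH, PSAT1, SHMT2 and ALDH1L2 were higher, 4 of 9 against a background of 4.52%, and SHMT1 was lower, 1 of 9 against 2.93%. The median log2 fold change was 0.63 over the members and 0.01 over all tested genes. In no member did the CPM of the groups overlap, which was also so for 84.3% of all tested genes. Since the members were chosen with results of these data known, these counts describe the 9 genes and no test was made over them as a set.

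**Figure D1:**
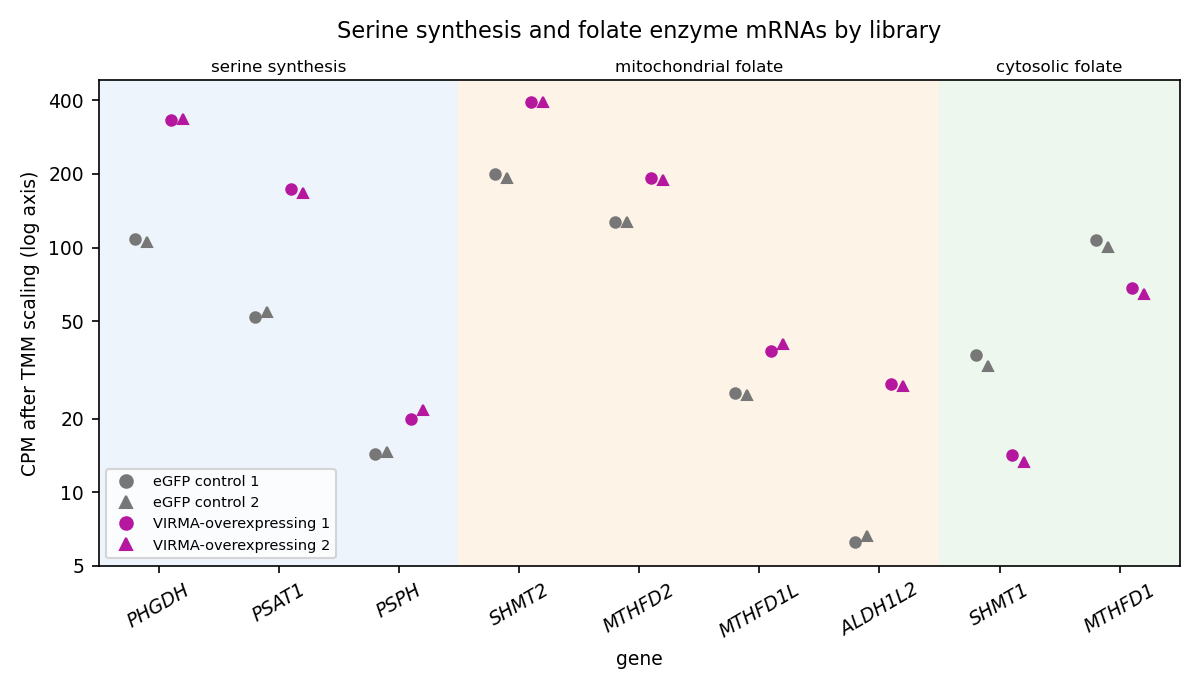
CPM of each of the 9 members after TMM scaling in each of the 4 libraries, 1 point per library, on a log axis, with grey for eGFP control and magenta for VIRMA-overexpressing. The 7 serine synthesis and mitochondrial enzymes are higher in both VIRMA-overexpressing libraries than in either eGFP control, and SHMT1 and MTHFD1 are lower in both.

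The mRNAs of the first 2 steps of serine synthesis rose together, and that of the last step rose less. PHGDH, the NAD-dependent dehydrogenase that commits 3-phosphoglycerate to the pathway (GRCh38 chromosome 1, 119659798 to 119744215), had 9050 and 8805 counts in the controls against 28549 and 27949 in the VIRMA-overexpressing libraries. Both VIRMA-overexpressing libraries were thus far above both controls, at 333.9 ± 0.664 CPM against 107.0 ± 2.55 (SD, n = 2). That is a log2 fold change of 1.64 (edgeR adjusted p = 3.28e-31, SE 0.0325), or 3.12-fold, and 1.08% of tested genes had a higher one.

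PSAT1, the phosphoserine aminotransferase (chromosome 9, 78297143 to 78330093), had 4313 and 4578 counts in the controls against 14883 and 13945 in the VIRMA-overexpressing libraries. In CPM this was 53.3 ± 2.01 against 170.3 ± 4.94 (SD, n = 2), and the spread within each group was small beside the distance between them. PSAT1 thus rose by a log2 fold change of 1.68 (edgeR adjusted p = 2.61e-29, SE 0.0383), or 3.20-fold. PSAT1 and PHGDH differed in log2 fold change by 0.03, which is less than the combined standard error of 0.0503. The RPKM of PSAT1 was 1.22 and 1.34 times that of PHGDH in the controls and 1.34 and 1.28 times in the VIRMA-overexpressing libraries, and the groups overlapped in this ratio.

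PSPH, the phosphatase of the last step (chromosome 7, 56011051 to 56051604), had 1195 and 1225 counts in the controls against 1706 and 1812 in the VIRMA-overexpressing libraries. Its CPM was 14.5 ± 0.190 against 20.8 ± 1.24 (SD, n = 2), and the groups did not overlap. The log2 fold change of 0.52 (edgeR adjusted p = 1.21e-07, SE 0.0740), or 1.43-fold, passed the adjusted p but not the fold-change threshold. It was smaller than that of PHGDH by 1.12 (combined SE 0.0809) and than that of PSAT1 by 1.16 (combined SE 0.0834). The RPKM of PHGDH was 3.72 and 3.53 times that of PSPH in the controls and 8.22 and 7.58 times in the VIRMA-overexpressing libraries, so the distance between them was wider in both VIRMA-overexpressing libraries.

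Among the mitochondrial folate enzymes SHMT2 had the most counts in every library. SHMT2, which makes glycine and methylene-tetrahydrofolate from serine (chromosome 12, 57229327 to 57234935), had 16629 and 16128 counts in the controls against 33754 and 32793 in the VIRMA-overexpressing libraries. That was 196.3 ± 5.11 CPM against 393.2 ± 1.34 (SD, n = 2), with wide separation between the groups. Its log2 fold change was 1.00 (edgeR adjusted p = 2.38e-25, SE 0.0309), or 2.00-fold, and it sits on the fold-change threshold. It was 0.98 without eGFP control replicate 2 and just under 1 without VIRMA-overexpressing replicate 1, and either left 3 members higher past both thresholds in place of 4, as did testing the change against 2-fold.

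MTHFD2, the mitochondrial methylene-tetrahydrofolate dehydrogenase and cyclohydrolase (chromosome 2, 74198562 to 74217565), had 10571 and 10665 counts in the controls against 16426 and 15783 in the VIRMA-overexpressing libraries. In CPM it stood at 127.3 ± 0.234 against 190.3 ± 2.14 (SD, n = 2), a gap many times the spread of either pair. MTHFD2 rose by a log2 fold change of 0.58 (edgeR adjusted p = 1.05e-17, SE 0.0327), smaller than that of SHMT2 by 0.42 (combined SE 0.0450). Of its exonic bases, 27.2% overlap exons of SLC4A5 on the opposite strand, whose row held 61 to 155 counts.

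MTHFD1L, the mitochondrial formyl-tetrahydrofolate synthetase that releases formate (chromosome 6, 150865549 to 151101887), had 2122 and 2092 counts in the controls against 3219 and 3371 in the VIRMA-overexpressing libraries. It rose from 25.2 ± 0.366 to 39.0 ± 1.93 CPM (SD, n = 2). The log2 fold change of 0.63 (edgeR adjusted p = 6.17e-12, SE 0.0574), or 1.54-fold, differed from that of MTHFD2 by 0.04, less than the combined standard error of 0.0661. The consecutive steps that carry the carbon to formate therefore had log2 fold changes that were not distinguishable at this precision.

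ALDH1L2, the mitochondrial formyl-tetrahydrofolate dehydrogenase (chromosome 12, 105019784 to 105084577), had the largest fold change of the 9 members and, in the controls, their lowest count. It held 521 and 556 counts in the controls against 2368 and 2273 in the VIRMA-overexpressing libraries. The level went from 6.45 ± 0.268 to 27.4 ± 0.328 CPM (SD, n = 2), and no control library came near either VIRMA-overexpressing library. Its log2 fold change was 2.09 (edgeR adjusted p = 1.26e-22, SE 0.0795), or 4.25-fold, and 0.574% of tested genes had a higher one. It exceeded the log2 fold change of SHMT2 by 1.08 (combined SE 0.0853).

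The mRNAs of both cytosolic enzymes fell. SHMT1, the cytosolic serine hydroxymethyltransferase (chromosome 17, 18327860 to 18363563), had 3019 and 2739 counts in the controls against 1220 and 1113 in the VIRMA-overexpressing libraries. Each VIRMA-overexpressing library held less than either control, at 13.8 ± 0.660 CPM against 34.5 ± 2.53 (SD, n = 2). It fell by 1.32 on the log2 scale (edgeR adjusted p = 9.08e-19, SE 0.0685), and 1.31% of tested genes had a lower log2 fold change.

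MTHFD1, the cytosolic trifunctional enzyme (chromosome 14, 64388031 to 64463457), had 8904 and 8417 counts in the controls against 5852 and 5400 in the VIRMA-overexpressing libraries. Its CPM was 103.8 ± 4.59 against 66.5 ± 2.65 (SD, n = 2), again without overlap. It fell by 0.64 on the log2 scale (edgeR adjusted p = 2.65e-16, SE 0.0406), with the control level 1.56 times the VIRMA-overexpressing level. The log2 fold change of SHMT1 minus that of MTHFD1 was -0.68 (combined SE 0.0796), so SHMT1 fell further.

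The counting's use of strand and of reads that align more than once is not stated, so reads shared with overlapping or near-identical genes are uncertain. Besides the MTHFD2 overlap, the exons of SHMT1, SHMT2, MTHFD1 and ALDH1L2 overlapped opposite-strand genes, by at most 8.83% of a member's exonic bases for 1 overlapping gene, in SHMT2. Some of these genes had more counts than the member. C12orf45, over 1.7% of ALDH1L2's exonic bases, held 2359 to 2802 counts, and SMCR8, over 2.69% of SHMT1's, held 3871 to 4255. How many of their reads fell in shared bases was not tested. The 14 rows of pseudogenes named after PSAT1, PSPH, SHMT1, MTHFD1 and MTHFD2 held little: the largest sum was 0.328% of the member's own count, for SHMT1P1.

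**Figure D2:**
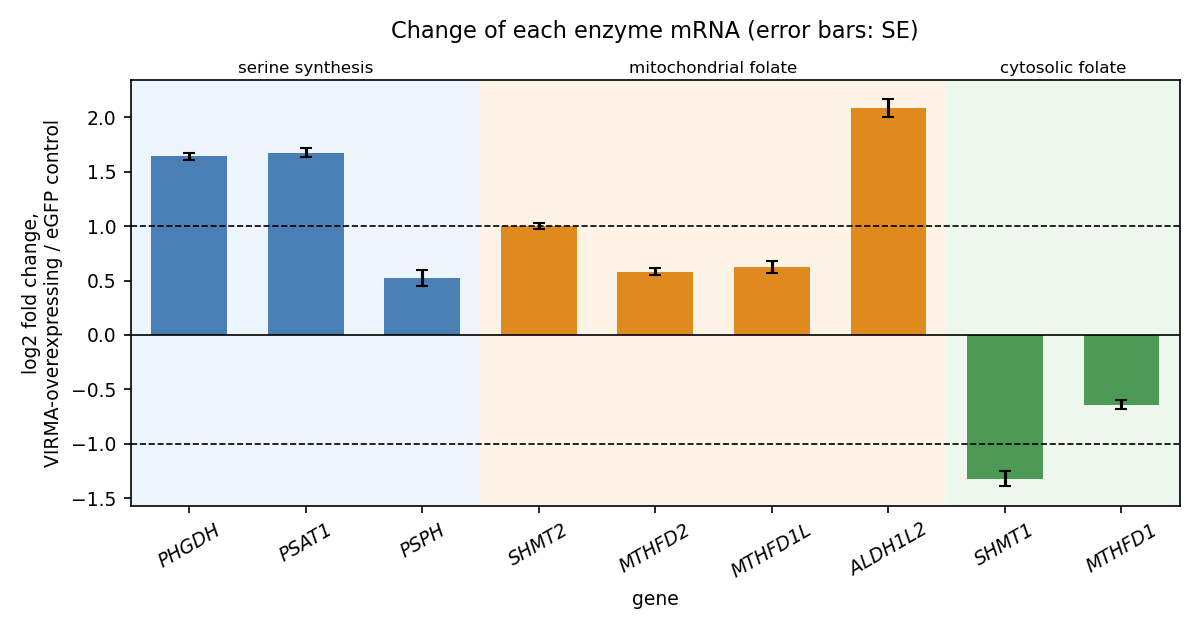
Bars of the log2 fold change of each member, VIRMA-overexpressing over eGFP control, with error bars of 1 standard error from edgeR and dashed lines at 1 and -1. ALDH1L2, PSAT1 and PHGDH lie well above 1, SHMT2 lies on it at 1.00, and SHMT1 is the only member below -1.

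Per length, the order of the members changed between the groups. RPKM, the count scaled to exon length and to the library total, is used here to set genes side by side. In the controls the order from the highest was SHMT2 at 39.4 ± 1.17, MTHFD2 at 25.4 ± 0.0472, PSAT1 at 23.7 ± 0.805, PHGDH at 18.5 ± 0.509, MTHFD1 at 10.8 ± 0.515, PSPH at 5.10 ± 0.0480, MTHFD1L at 4.89 ± 0.0889, SHMT1 at 4.61 ± 0.354 and ALDH1L2 at 0.737 ± 0.0279 RPKM (SD, n = 2). Only MTHFD1L and SHMT1 overlapped among neighbours in that order. In the VIRMA-overexpressing cells it was SHMT2 at 83.7 ± 0.632, PSAT1 at 80.1 ± 2.66, PHGDH at 61.1 ± 0.131, MTHFD2 at 40.2 ± 0.618, MTHFD1L at 7.99 ± 0.363, PSPH at 7.75 ± 0.430, MTHFD1 at 7.30 ± 0.321, ALDH1L2 at 3.32 ± 0.0534 and SHMT1 at 1.95 ± 0.101 RPKM (SD, n = 2). Here MTHFD1L overlapped PSPH and PSPH overlapped MTHFD1. On this scale PSAT1 and PHGDH passed MTHFD2, MTHFD1 dropped to the level of PSPH, and SHMT1 went from above ALDH1L2 to below it.

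The order between genes depends on the length used, since the table sums all annotated exons. With the length of the Ensembl canonical transcript, an alternative chosen after the data were seen, PHGDH moved from 55.7 to 184.2 RPKM and was second to SHMT2, which moved from 88.4 to 187.7, in both groups. On that scale MTHFD1 stood above MTHFD2 in the controls, at 32.0 against 28.1 RPKM, and below it in the VIRMA-overexpressing cells, at 21.7 against 44.5 RPKM. SHMT1 stood above ALDH1L2 on it in both groups, at 13.3 against 0.844 RPKM in the controls and 5.61 against 3.80 in the VIRMA-overexpressing cells, so the crossing of these 2 genes holds only for the summed exon length. The same limit applies to 2 of the other moves: PHGDH was above MTHFD2 already in the controls on the canonical scale, and MTHFD1 stayed above PSPH in the VIRMA-overexpressing cells, at 21.7 against 10.8 RPKM. PSAT1 passed MTHFD2 on both scales, going from 23.5 to 79.5 RPKM with canonical lengths.

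The mRNAs of the mitochondrial enzymes gained on those of the cytosolic ones in each comparison of counterparts. The summed RPKM of SHMT2, MTHFD2, MTHFD1L and ALDH1L2 was 71.3 and 69.5 in the controls against 135.9 and 134.5 in the VIRMA-overexpressing libraries. The summed RPKM of SHMT1 and MTHFD1 was 16.0 and 14.8 in the controls against 9.54 and 8.95 in the VIRMA-overexpressing libraries. Both sides of the ratio moved, upward for the first sum and downward for the second. The mitochondrial to cytosolic ratio was 4.47 and 4.72 in the controls against 14.2 and 15.0 in the VIRMA-overexpressing libraries, a change of 1.67 on the log2 scale (pooled SD 0.0556), or 3.19-fold. The ratio is a description with no test, since the members were chosen with their changes known. The cytosolic share of the 6 folate enzymes' RPKM went from 18.3% and 17.5% to 6.56% and 6.24%. The levels depend on the length used: with canonical transcript lengths the ratio was 2.69 and 2.82 in the controls against 8.82 and 9.32 in the VIRMA-overexpressing libraries, and the cytosolic share went from 27.1% and 26.2% to 10.2% and 9.69%.

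The shares of the 6 enzymes did not move alike within the mitochondrial side. SHMT2 took 46.1% and 45.8% of their summed RPKM in the controls against 57.9% and 58.0% in the VIRMA-overexpressing libraries. ALDH1L2 took 0.821% and 0.898% in the controls against 2.31% and 2.29% in the VIRMA-overexpressing libraries. Both gained share in each VIRMA-overexpressing library. MTHFD2, although higher in CPM, took 29.1% and 30.1% in the controls against 28.0% and 27.7% in the VIRMA-overexpressing libraries, and MTHFD1L was between 5.32% and 5.74% in all 4 with overlapping groups. MTHFD1 went from 12.7% and 12.3% to 5.17% and 4.93%, and SHMT1 from 5.56% and 5.17% to 1.39% and 1.31%. With canonical lengths SHMT2 and ALDH1L2 again gained share and MTHFD1 and SHMT1 lost it, while MTHFD2, at 16.1% to 16.9%, overlapped between the groups.

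Pairing each mitochondrial enzyme with its cytosolic counterpart gave the same direction. The SHMT2 to SHMT1 ratio of RPKM was 8.29 and 8.86 in the controls against 41.6 and 44.3 in the VIRMA-overexpressing libraries, a change of 2.33 on the log2 scale (pooled SD 0.0662), or 5.01-fold. The MTHFD2 to MTHFD1 ratio was 2.29 and 2.44 against 5.41 and 5.63, a change of 1.22, or 2.33-fold. The MTHFD1L to MTHFD1 ratio was 0.445 and 0.464 against 1.03 and 1.17, a change of 1.27, or 2.41-fold. Which of a pair has the higher level depends on the length: with canonical lengths MTHFD2 to MTHFD1 was 0.850 and 0.908 in the controls against 2.01 and 2.09, and MTHFD1L to MTHFD1 was 0.218 and 0.227 against 0.503 and 0.571, while SHMT2 to SHMT1 was 6.45 and 6.90 against 32.4 and 34.5. The change in each pair does not depend on it. In each of these 3 pairs both VIRMA-overexpressing libraries were above both controls. The exact two-sided permutation test of each ratio gave p = 0.333, which is the smallest p that 2 libraries against 2 allow and passes no threshold. The edgeR log2 fold changes of the same pairs differed by 2.33 (combined SE 0.0751), 1.22 (combined SE 0.0521) and 1.27 (combined SE 0.0703).

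**Figure D3:**
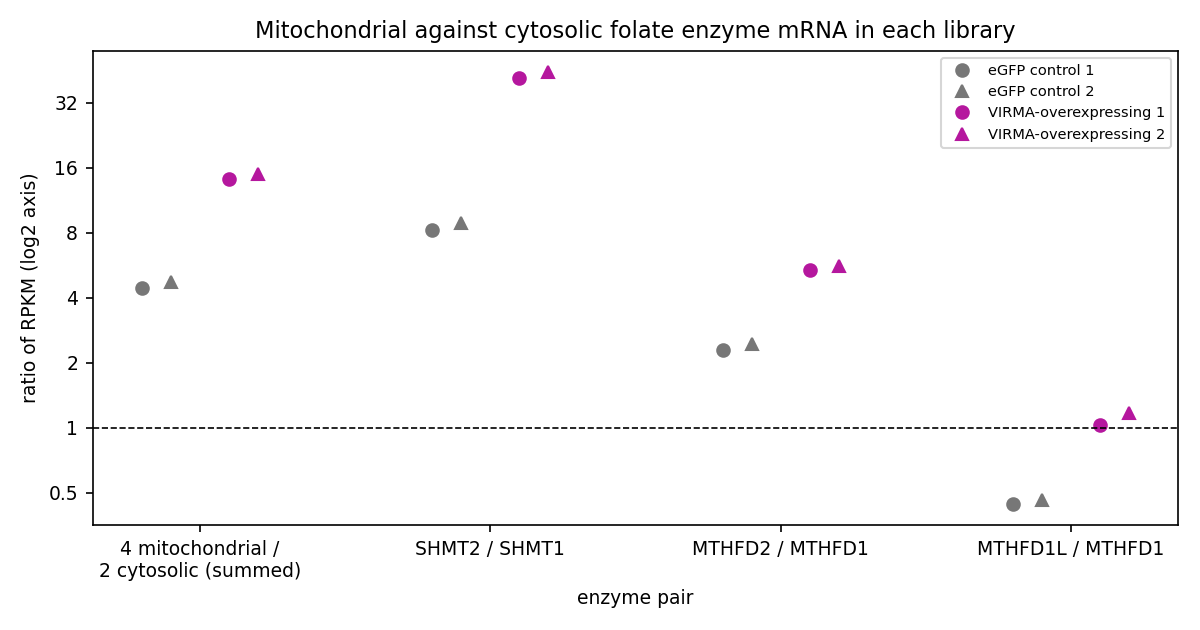
Ratio of mitochondrial to cytosolic RPKM in each of the 4 libraries, on a log axis, for the 4 against 2 folate enzymes together and for SHMT2 to SHMT1, MTHFD2 to MTHFD1 and MTHFD1L to MTHFD1. Every ratio is higher in both VIRMA-overexpressing libraries than in either eGFP control, with SHMT2 to SHMT1 going from 8.29 and 8.86 to 41.6 and 44.3.

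The opposite movement by compartment did not extend to every cytosolic folate enzyme. ALDH1L1, the cytosolic counterpart of ALDH1L2, was at 26.0 and 27.3 CPM in the controls against 41.2 and 41.1 in the VIRMA-overexpressing libraries. It rose by a log2 fold change of 0.63 (edgeR adjusted p = 2.03e-12, SE 0.0550), less than ALDH1L2 by 1.46 (combined SE 0.0966). MTHFD2L, the mitochondrial homologue of MTHFD2, did not pass the filter. With no filter it had a log2 fold change of 0.57, from 6.54 and 5.59 to 10.1 and 8.35 CPM.

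The rest of the folate pathway, 17 genes of enzymes and carriers, moved both ways. Of the 13 that passed the filter, 5 were higher, 6 were lower and 2 did not pass the adjusted p in edgeR, with a median log2 fold change of 0.06. All tested genes also moved both ways, with 35.1% higher and 35.9% lower at that adjusted p. The only one past both thresholds was TYMS, thymidylate synthase, which uses methylene-tetrahydrofolate to make dTMP. It was at 38.0 and 36.2 CPM in the controls against 13.6 and 14.6 in the VIRMA-overexpressing libraries, and it fell by 1.39 on the log2 scale (edgeR adjusted p = 5.03e-20, SE 0.0652). The reduced folate carrier SLC19A1 fell by 0.70, and the enzymes that add and trim folate polyglutamates, FPGS and GGH, by 0.52 and 0.71. The methionine synthase MTR went the other way, with a log2 fold change of 0.63.

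The genes that consume or move serine and glycine also split. The glycine cleavage system strips a carbon from glycine in mitochondria. All 3 of its tested genes were lower at the adjusted p, led by GLDC, its decarboxylase, at 53.1 and 52.1 CPM in the controls against 18.3 and 20.4 in the VIRMA-overexpressing libraries. GLDC fell by 1.44 (edgeR adjusted p = 3.68e-22, SE 0.0570), while GCSH fell by 0.26 and DLD by 0.12. With library totals alone as the scaling, only GLDC of these passed. Of 12 tested carriers and other users of serine and glycine, 5 were higher and 5 lower, and 5 and 3 with upper-quartile factors or library totals. Over all tested genes the shares were 35.1% higher and 35.9% lower. SLC6A9, the glycine transporter GlyT1, went from 49.7 and 49.9 to 129.5 and 133.4 CPM, a log2 fold change of 1.40 (edgeR adjusted p = 7.10e-27, SE 0.0384). The neutral amino acid transporters SLC1A4 and SLC1A5 had log2 fold changes of 0.93 and 0.60. SFXN1, which carries serine into mitochondria, fell by 0.51 (edgeR adjusted p = 3.15e-13), while SHMT2, which uses serine there, rose.

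Of 12 tested genes of the methionine cycle and transsulfuration, 4 were higher and 4 lower, and 6 and 4 with upper-quartile factors or library totals. CBS, which joins serine to homocysteine, was at 1.11 and 1.17 CPM in the controls against 9.06 and 8.86 in the VIRMA-overexpressing libraries. Like ALDH1L2 it passed the filter only through the group where it was high. Its log2 fold change was 2.98 with the filter and 2.94 with none. The row of its near-identical copy CBSL held 63, 63, 495 and 487 counts beside 92, 98, 776 and 741 for CBS, and reads of these rows cannot be told apart here. CTH, the next enzyme, had a log2 fold change of 0.60, and AHCY, which releases homocysteine, fell by 0.48. Of 7 tested enzymes of de novo purine synthesis, which draws on formyl-tetrahydrofolate, 1 was higher, ATIC at 0.13, and 2 were lower, PAICS at -0.50 and PRPS1 at -0.35. None of the purine genes passed both thresholds.

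Over these 5 lists together, 47 of 56 genes were tested, 15 were higher and 20 lower at the adjusted p, and 2 were higher (SLC6A9 and CBS, the latter with the limit just given) and 2 lower (TYMS and GLDC) past both thresholds, with a median log2 fold change of -0.01. With library totals the first split was 18 higher and 16 lower. Past both thresholds, 3 were higher with upper-quartile factors, library totals, edgeR's filterByExpr filter or no filter. The lower count stayed at 2 in each. FTCD, which did not pass the filter, had a log2 fold change of 2.11 with none (edgeR adjusted p = 0.000676), at 4 to 50 counts per library. The shares of 15 and 20 of 47 stand beside 35.1% and 35.9% of all tested genes. A further list held 8 genes taken as regulators of serine synthesis genes, and whether each regulates them in these cells was not tested. In it ATF4 had a log2 fold change of 0.73 (edgeR adjusted p = 1.53e-22, SE 0.0282), from 473.9 ± 8.31 to 788.7 ± 15.2 CPM (SD, n = 2). In the same list NFE2L2 was at 0.55, CEBPB at 0.77, KDM4C at 0.84, ATF3 at 1.37 and DDIT3 at 3.48, while MYC fell by 0.40 and EHMT2 by 0.26. All of these values are of mRNA, and ATF4 protein or activity was not measured in these libraries. By western blot in SKBR3 cells overexpressing VIRMA, the paper reports minimal change of ATF4 protein under optimal culture. It reports more ATF4 protein than in controls after arsenite or under hypoxia. These lists were written with results of these data known and give no independent support for a direction.

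**Figure D4:**
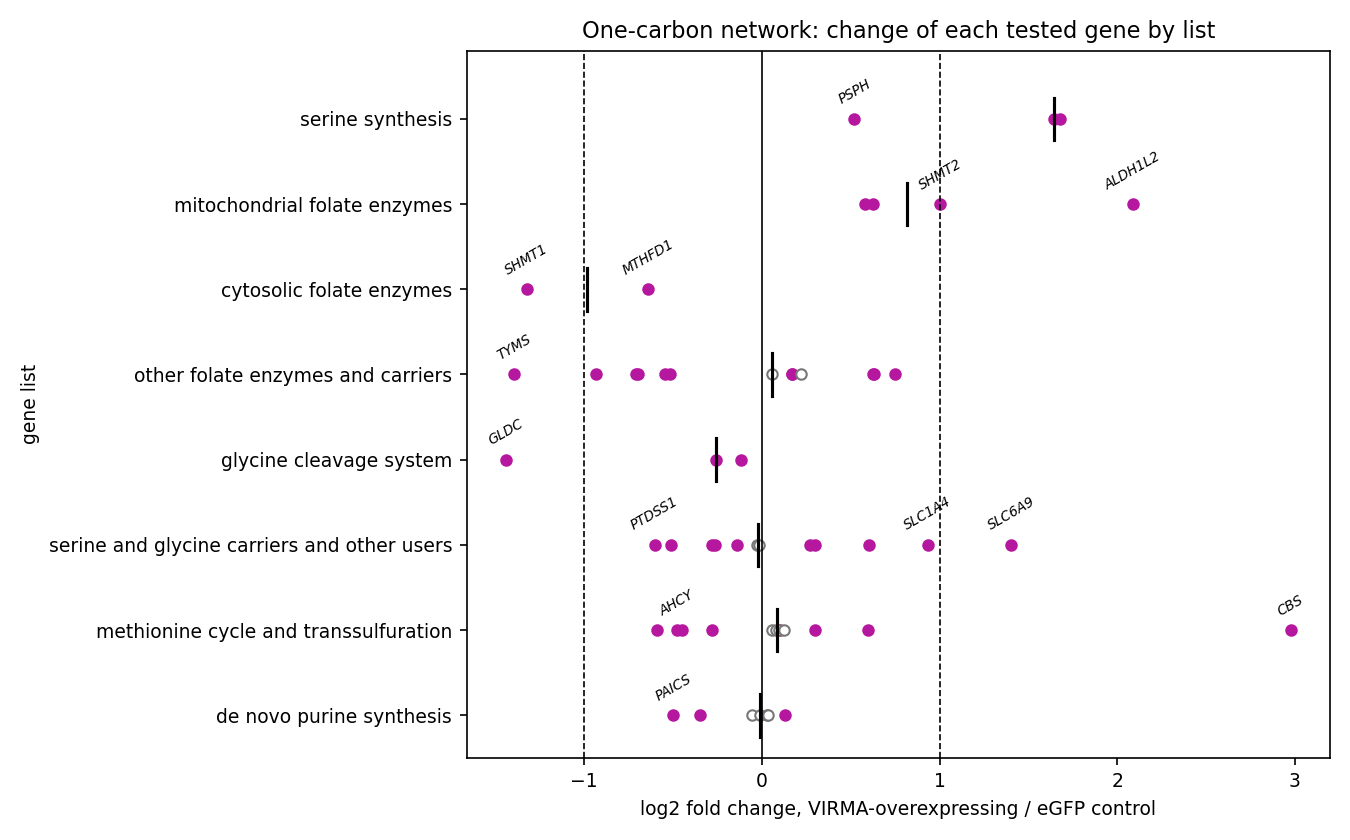
Log2 fold change of each tested gene, VIRMA-overexpressing over eGFP control, by list. Filled points passed an edgeR adjusted p below 0.05, open points did not, the black tick is the list's median and dashed lines mark 1 and -1. The serine synthesis and mitochondrial lists lie wholly above 0 and the cytosolic pair wholly below, while the other folate, carrier and methionine lists spread to both sides.

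The tested genes whose profile over the 4 libraries lay nearest to the mean profile of the 9 members, by the root-mean-square difference of centred log2 CPM, were ZNF33A (0.00385, log2 fold change 0.68), STX16 (0.00828, 0.70) and TGIF1 (0.00912, 0.70). That mean profile was -0.33 and -0.35 in the controls against 0.35 and 0.34 in the VIRMA-overexpressing libraries, and with 4 libraries it holds little beyond the difference between the groups. It averages 7 members that were higher with 2 that were lower, so it stands for neither direction alone.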

How the data were processed

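The authors trimmed paired reads of poly-A libraries from a stranded kit with Trimmomatic 0.39, aligned them to hg38 with STAR 2.5.2a and counted them with featureCounts. What they deposited is 1 table of raw counts by gene, without normalization, with exon coordinates and exonic lengths. The strand and multiple-alignment settings are not given in the sources used here. Column names give the control for the eGFP libraries and only a number for the VIRMA-overexpressing ones, which were assigned as the remaining group.

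RPKM was computed from the deposited counts, library totals and exonic lengths, and 12205 genes passed an RPKM of 1 in 2 or more of the 4 libraries and were tested with edgeR 4.0.16 (R 4.3.3) quasi-likelihood tests, TMM factors and no term but group, with p-values adjusted by Benjamini-Hochberg over all genes tested. The RPKM filter and the thresholds, an adjusted p below 0.05 and an absolute log2 fold change above 1, follow the study's methods, which used DESeq2. CPM is scaled by TMM and given as mean ± SD. The combined SE of a difference between genes is the root of the summed squared standard errors, which takes the genes as independent. On simulated counts of this comparison with 12205 genes, 99% of 200 genes changed by a log2 of 1.5 were recovered and 0 unchanged genes were called. The simulation gave every gene the same spread between replicates and called genes at both thresholds. It therefore says little of genes with a larger spread, or of smaller changes called at the adjusted p alone. The table's coordinates are GRCh38: 99.74% of rows with a symbol in GENCODE v44 lay at an overlapping position there.

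Replicates differed by more than sampling noise (chi-square per degree of freedom 7.87 in the controls, 6.18 in the VIRMA-overexpressing cells). They are biological duplicates per the study's methods. Each edgeR p-value sets the difference between the groups against a spread estimated from these libraries, with information shared across genes. It does not take in how separately made populations of either kind would differ. Same-numbered libraries did not deviate together (correlation of deviations 0.03). Alternatives were DESeq2 1.42.0, limma-voom (limma 3.58.1), 3 other scalings, 3 other filters, the replicate number as a block, each library left out (the lone library of a group is then assumed to vary like the other group) and other thresholds, lengths and members.

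The members, gene lists, motifs and tests were chosen with earlier results of these data known. Genes named are the members, VIRMA, genes of the lists (those past both thresholds always), overlapping genes, pseudogenes and the 3 genes nearest in profile. CBSL was named after its counts were seen. Some genes of the lists are counted but not reported here by name.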

Additional observations from a re-analysis of the deposited data

How the results depend on the processing

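The 9 members and VIRMA kept their direction and stayed past the adjusted p in all 13 alternatives run for each. The log2 fold change ranged from 1.60 to 1.73 for PHGDH, 1.63 to 1.76 for PSAT1, 0.46 to 0.60 for PSPH, 0.96 to 1.09 for SHMT2, 0.54 to 0.66 for MTHFD2, 0.57 to 0.71 for MTHFD1L, 2.04 to 2.17 for ALDH1L2, -1.40 to -1.24 for SHMT1 and -0.69 to -0.56 for MTHFD1. SHMT2 fell just under the threshold of 1 with DESeq2, with its size factors in edgeR and with each of the 3 other filters, which left 3 members higher past both thresholds. At the adjusted p alone the counts were 7 higher and 2 lower, and 2 were lower with a 1.5-fold threshold, chosen after seeing the data. The change in the log2 mitochondrial to cytosolic ratio was 2.06 as a difference of mean edgeR log2 fold changes and 1.97 without SHMT2 and MTHFD1. Those alternatives give ALDH1L2 and SHMT1 more weight by construction. It was 1.63 to 1.71 with each library left out, 1.66 from counts and 1.72 with canonical transcript lengths, chosen after seeing the data. Whether same-numbered libraries were prepared as pairs is not stated in the sources used here. With the replicate number as a block, 4 members were higher and 1 lower past both thresholds and the ratio changed by 1.67, as without it. Upper-quartile factors and library totals moved the median log2 fold change of all genes by 0.0715 and 0.0835, and no member changed direction.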
